A study of Mus musculus with 9 samples.

Results

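The 9 genes described here encode the phagocyte NADPH oxidase, a channel and a GTPase that serve it, and 3 receptors that start or prime neutrophil responses. They are Cybb, Cyba, Ncf1, Ncf4, Rac2, Hvcn1, Csf3r, Fpr1 and Fpr2, chosen by name and found at 1 identifier each among 43629 genes listed. They were read in RNA sequencing of mouse bone marrow cells selected with beads for c-KIT (CD117), the receptor for stem cell factor. All mice were of the C57BL/6 strain and had received pIpC, an RNA mimic used to set off interferon. WT mice carried normal Cbfb, Cbfb+/MYH11 mice (MYH11 below) carried 1 allele encoding CBFβ-SMMHC, the fusion of inv(16) leukaemia, and Cbfb+/mDE mice (mDE below) carried 1 fusion allele altered in its C-terminal multimerization domain. Each genotype had 3 libraries, and the labels give no age, Cre driver or animal number. Because they do not say that libraries came from separate animals, p-values here measure sample-to-sample spread alone, and that spread may be technical.

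The oxidase moves electrons from NADPH across a membrane to oxygen and so makes superoxide, with which neutrophils and macrophages kill microbes. Its core is flavocytochrome b558, built from gp91phox (Cybb) and p22phox (Cyba), and it stays idle until cytosolic subunits, among them p47phox (Ncf1) and p40phox (Ncf4), and a Rac GTPase join it. Loss of a subunit causes chronic granulomatous disease. In bone marrow these genes are turned on as granulocytes and monocytes mature, whereas the G-CSF receptor (Csf3r) drives granulocyte production and the formyl peptide receptors guide mature cells to bacteria and injured tissue.

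The libraries held 39300366 to 50073097 reads, and no member had fewer than 301 reads in any library. Values are the deposited normalised reads unless a scale is named, and ± is the SD of 3 libraries. Kit, whose product was used for selection, averaged 7504 ± 253 in the WT libraries, 7256 ± 329 in the mDE libraries and 3538 ± 321 in the MYH11 libraries. RNA of late neutrophil markers was abundant in these c-Kit-selected cells. A list of 15 late neutrophil markers took 11.1% to 13.1% of all reads in WT, 12.6% to 15.6% in mDE and 0.808% to 2.49% in MYH11. In bulk RNA, fewer neutrophils and less of this RNA per neutrophil cannot be told apart, and this holds for every result below.

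All 9 genes fell in MYH11 against WT, by 1.89-fold (Csf3r) to 5.79-fold (Fpr1). None was called in mDE against WT, where only 1.24% of all genes tested were called in either direction. Of all 15948 genes tested, 27.8% were called lower in MYH11 at a limma adjusted p under 0.05, and 32% were called higher. Calls were thus common in MYH11 against WT. The median log2 fold change was -1.97 over the 9 genes and 0.02 over all genes tested. In normalised reads, the MYH11 libraries lay below every WT library for 9 of 9 genes, and the same held for 32.3% of all genes tested. For Csf3r this depended on the scaling, as given below. The calls held in each of the 20 alternative analyses.

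**Figure D1:**
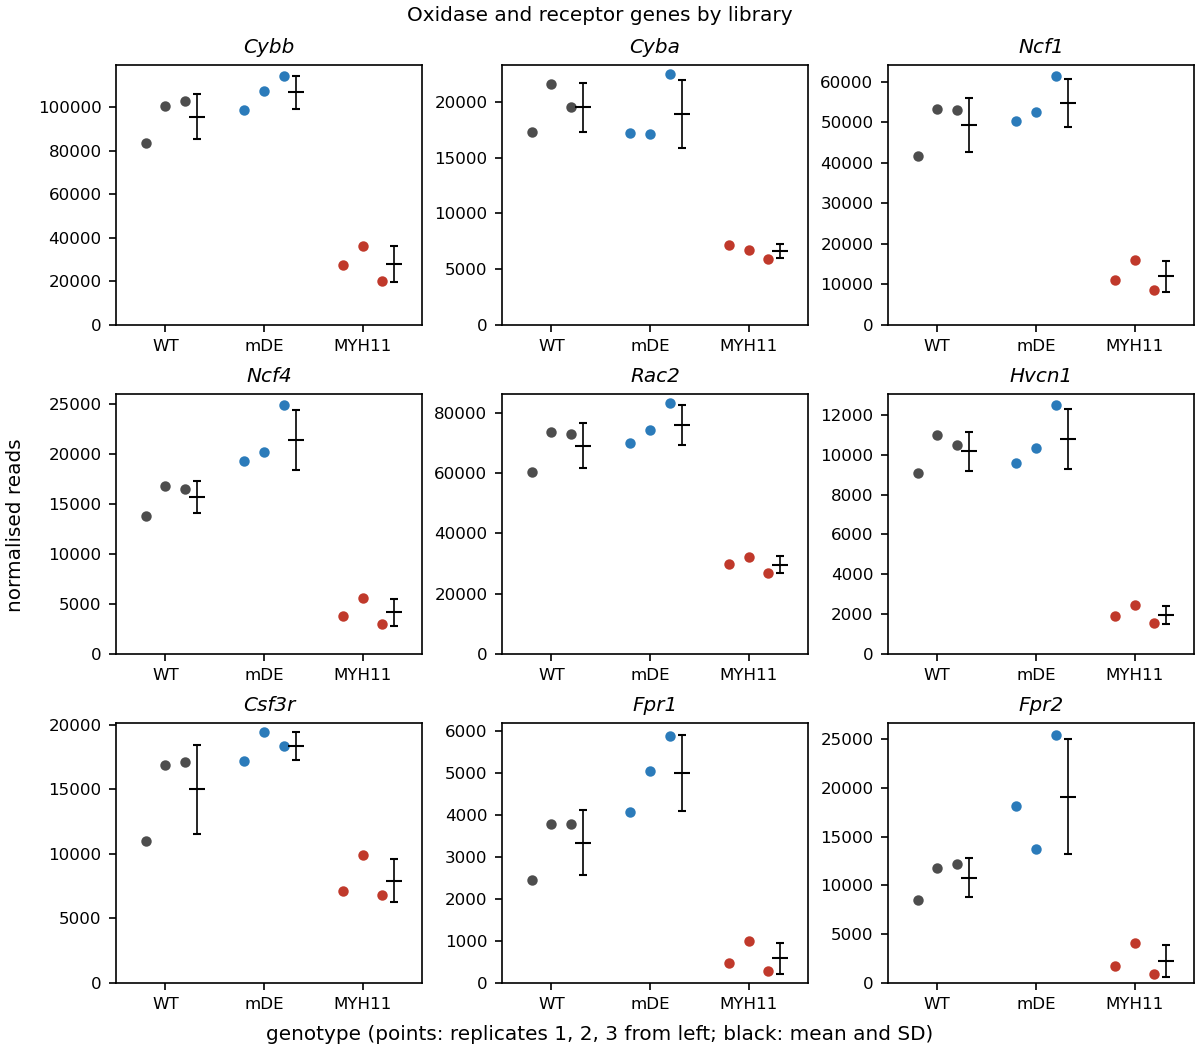
Normalised reads (linear axis from 0) of the 9 genes in each of the 9 libraries, by genotype; points are replicates 1, 2 and 3 from left, and black marks give the mean and SD. The MYH11 points sit below all WT and mDE points in every panel, nearest for Csf3r, where the highest MYH11 library reached 9878 and the lowest WT library 11014.

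Cybb encodes gp91phox, the subunit that carries the electrons, and pairs with p22phox. Its WT libraries held 83639.8, 100763 and 102709.8 normalised reads, its mDE libraries 98981, 107588 and 114261, and its MYH11 libraries 27408, 36263 and 19914. WT and mDE overlapped, while every MYH11 library lay far below both. Cybb fell 3.43-fold in MYH11 (log2 fold change -1.82, SE 0.19, limma adjusted p = 3.76e-05). Against mDE it was 3.84-fold lower (limma adjusted p = 2.45e-05), and mDE against WT did not pass (log2 fold change 0.16, SE 0.19, limma adjusted p = 0.668).

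Cyba encodes p22phox, which holds gp91phox stable and docks p47phox. The WT libraries held 17291, 21649 and 19592 normalised reads, mDE at 17199.5, 17086 and 22478, and MYH11 at 7136, 6731 and 5929. The MYH11 libraries were close together and far under the others. Cyba fell 2.96-fold (log2 fold change -1.56, SE 0.12, limma adjusted p = 7.34e-06). It was the only one of the 9 genes whose mDE mean lay under its WT mean (18921 against 19511, limma adjusted p = 0.847). On the RPKM scale (reads scaled to exon length and library size), on which genes can be compared, Cybb stood at 366 ± 28.2 in WT and 125 ± 36.2 in MYH11, and Cyba at 417 ± 36.9 and 165 ± 12.8. RPKM divides by all reads of a library, so differences between genotypes on it are not those of the normalised reads. The stated fold changes are of normalised reads, and scaling by all reads was not among the alternative analyses. The ratio of Cybb to Cyba on this scale was 0.833 to 0.938 in WT, 0.909 to 1.13 in mDE and 0.601 to 0.964 in MYH11, so these ranges overlap between WT and MYH11.

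The 250 bases before the RefSeq transcription start (GRCm38.p6) of both flavocytochrome genes are shown because these subunits form 1 complex and their genes moved the same way in MYH11. Capitals mark matches, on either strand, to TGTGGT (the core letters bound by RUNX factors, the partners of CBFβ), AGGAAGT (for PU.1), the longer string TTNNGNAA (for C/EBP factors) or AGATAA (for GATA factors).
Cybb (chrX:9469325-9469574, minus strand): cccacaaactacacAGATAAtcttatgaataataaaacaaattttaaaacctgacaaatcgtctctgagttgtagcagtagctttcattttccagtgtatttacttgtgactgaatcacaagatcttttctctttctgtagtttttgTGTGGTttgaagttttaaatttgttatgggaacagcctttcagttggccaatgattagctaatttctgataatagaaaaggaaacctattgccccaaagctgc
Cyba (chr8:122432941-122433190, minus strand): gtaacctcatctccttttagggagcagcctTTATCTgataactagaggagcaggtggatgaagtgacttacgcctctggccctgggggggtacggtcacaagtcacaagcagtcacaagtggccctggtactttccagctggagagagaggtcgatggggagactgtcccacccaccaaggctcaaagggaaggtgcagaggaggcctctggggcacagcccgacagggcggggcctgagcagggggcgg
The Cybb window holds TGTGGT from 103 to 98 bases before the start and AGATAA from 236 to 231, and the Cyba window holds TTATCT, which is AGATAA on the other strand, from 220 to 215. The TGTGGT in Cybb is the only RUNX match among the 6 members found in the promoter table, and 14.0% of the 32851 windows of that table hold one. AGATAA occurred in 9.99% of them. No member's window held AGGAAGT, against 7.69% of all windows, which says only that these letters are absent there. No matches overlapped each other. The Cybb window lies in no exon of the GENCODE M21 annotation but inside its Cybb gene model (chromosome X, 9435252 to 9487771), which begins upstream of the window. Ncf4, Rac2 and Hvcn1 were not found in the promoter table.

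The cytosolic subunits Ncf1 and Ncf4 fell by 4.14-fold and 3.80-fold. Ncf1 encodes p47phox, which is phosphorylated on activation and carries the others to the membrane. The WT libraries held 41723, 53303 and 53019.8 normalised reads, those of mDE 50329, 52628 and 61462, and those of MYH11 11076, 16046 and 8655. No MYH11 library overlapped another genotype (log2 fold change -2.09, SE 0.20, limma adjusted p = 2.29e-05). Ncf4 encodes p40phox, which binds a phosphoinositide of the phagosome membrane. Its libraries held 13799, 16775 and 16506 normalised reads in WT, 19298, 20150.4 and 24881 in mDE and 3756, 5601 and 3019.9 in MYH11. The 3 genotypes did not overlap for Ncf4, with mDE highest and MYH11 lowest. It passed the test in MYH11 (log2 fold change -1.97, SE 0.20, limma adjusted p = 3.14e-05) but not in mDE (1.37-fold, log2 fold change 0.45, SE 0.20, limma adjusted p = 0.258). Per exon length, Ncf1 exceeded Ncf4 by 1.67 to 1.77 times in WT libraries, 1.36 to 1.44 times in mDE and 1.58 to 1.63 times in MYH11, and these ranges do not overlap. The differences between members in the size of the fall were not tested.

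Rac2 encodes the Rac GTPase of blood cells that switches the neutrophil oxidase on and also drives migration. It had 60630.1, 73932 and 73191 normalised reads in WT, 70249, 74613 and 83516 in mDE and 29923, 32252 and 26789 in MYH11. The MYH11 values varied little and were 2.34-fold lower than WT on average (log2 fold change -1.22, SE 0.11, limma adjusted p = 1.43e-05). On the RPKM scale Rac2 had the highest mean of the 9 genes in all genotypes, with 495 ± 37.9 in WT, 532 ± 22.0 in mDE and 249 ± 21.2 in MYH11. Hvcn1 encodes the voltage-gated proton channel that offsets the charge the oxidase moves, and B cells use it too. Its libraries held 9079, 10979 and 10477 normalised reads in WT, 9601, 10333 and 12500.0 in mDE and 1874, 2437 and 1541 in MYH11. Hvcn1 fell 5.22-fold (log2 fold change -2.40, SE 0.16, limma adjusted p = 2.63e-06), the smallest adjusted p of the 9 genes. Among 9 B cell markers 3 were called lower and 1 higher in MYH11, against 27.8% and 32% of all genes tested. Ms4a1 fell 18.5-fold, Blk 13.7-fold and Cd22 2.10-fold, and Ebf1 rose 2.42-fold. The summed share of reads of the 9 markers overlapped between the genotypes (0.154% to 0.574% in WT, 0.184% to 0.225% in mDE, 0.100% to 0.279% in MYH11). WT replicate 3 alone set the top of the WT range, as replicates 1 and 2 stood at 0.154% and 0.156%. The part of B cells in the Hvcn1 result was not tested.

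Partners of the oxidase outside the 9 genes did not all follow. Rac1, the widely expressed Rac GTPase, did not pass (15756 ± 290.5 in WT against 17353 ± 485 in MYH11, limma adjusted p = 0.134). Rap1a, a GTPase that copurifies with the flavocytochrome, stood at 7794 ± 322 in WT and 7604 ± 469 in MYH11 (limma adjusted p = 0.660). Cybc1, a chaperone needed for a stable flavocytochrome, stood at 4654 ± 250.3 and 4862 ± 208 (limma adjusted p = 0.434). Of 15 partner genes, all tested, 8 were called lower and 2 higher, against 27.8% and 32% of all genes tested. The median log2 fold change of the partners was -0.17. The 8 lower included Pak1 (3.32-fold), Arhgdib (2.98-fold) and Prdx6 (1.92-fold), and the smallest fall among them was that of Pik3cg (1.12-fold). The 2 higher were the Rac exchange factor Dock2 (1.35-fold) and the kinase subunit Pik3cd (1.79-fold). These lower and higher genes were named after their values were seen. Reads of Rac1 and Rac2, and of Fpr1 and Fpr2, come from related sequences and can be split between them by the counting.

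**Figure D2:**
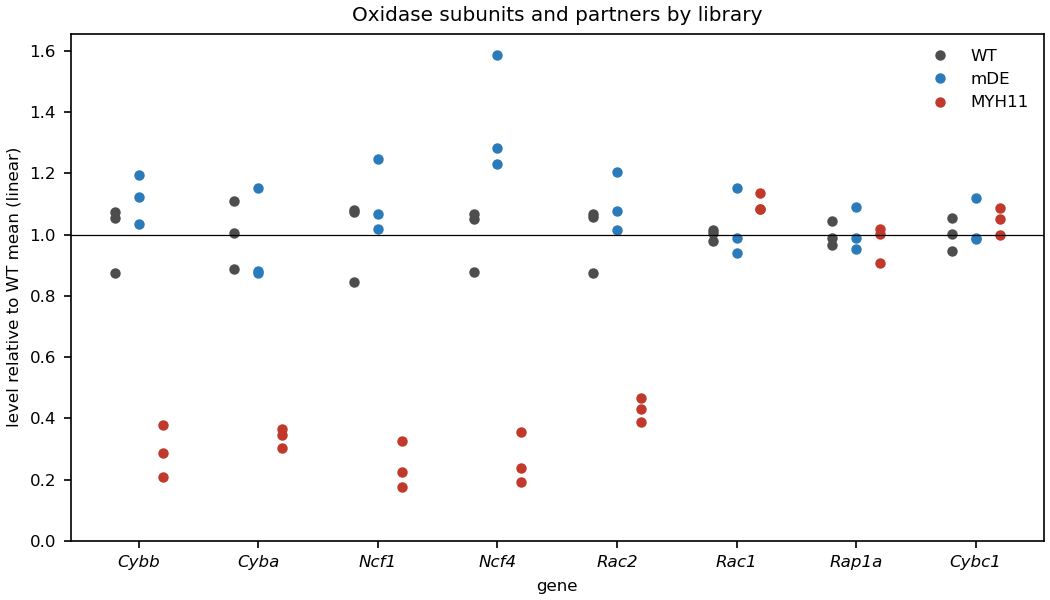
Level of each oxidase subunit or partner in each library, relative to the mean of the WT libraries (linear axis from 0; points are libraries, 3 per genotype). Cybb, Cyba, Ncf1, Ncf4 and Rac2 sit low in MYH11, while Rac1, Rap1a and Cybc1 did not pass the test.

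Other NADPH oxidases were close to absent. Of 9 genes encoding Nox1, Nox3, Nox4, the Duox enzymes and their adaptors, 2 had enough reads to be tested, and neither passed: Nox1 averaged 7.20 normalised reads in WT and 6.18 in MYH11 (limma adjusted p = 0.994), and Noxo1 7.74 and 13.4 (limma adjusted p = 0.0789). At an unadjusted p under 0.05 limma called 0 of these 2, and edgeR and DESeq2 called 0. Nox3 had no read in any library, which allows up to 3 reads each. Of 17 tested genes for oxidant use or defence, 6 were called lower and 4 higher in MYH11, against 27.8% and 32% of all genes tested. Prdx5, a peroxiredoxin, fell 4.44-fold from 35429 ± 2581 to 7981 ± 1387 normalised reads, and Nfe2l2, the NRF2 factor of antioxidant genes, fell 1.88-fold. Cat, catalase, rose 2.19-fold from 3773 ± 173 to 8263 ± 1003, and Prdx1 rose 1.87-fold (limma adjusted p = 4.7e-06 and 1.2e-05).

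Csf3r, the receptor for G-CSF, had the smallest fold change of the 9 genes. Its libraries held 11014, 16872 and 17115 normalised reads in WT, 17246, 19464 and 18398 in mDE and 7081, 9878 and 6821 in MYH11. WT replicate 1 stood low and came near the highest MYH11 library, though the groups did not overlap in normalised reads. On the RPKM scale they overlapped (WT 92.0 ± 18.5, lowest 70.6, and MYH11 57.3 ± 12.2, highest 71.4). The fall in normalised reads was 1.89-fold (log2 fold change -0.91, SE 0.18, limma adjusted p = 0.00214). Against mDE it was 2.32-fold (limma adjusted p = 0.000384). Csf3, the gene of its ligand, had at most 1 read in any library. Among 20 tested genes of G-CSF receptor signalling 9 were called lower and 8 higher in MYH11, against 27.8% and 32% of all genes tested. The median log2 fold change of these 20 genes was -0.04. Cebpe, a factor needed for late granulocyte maturation, fell 9.64-fold from 11766 ± 848 to 1221 ± 651 normalised reads, and the adaptor Shc1 fell 1.55-fold. The docking protein Gab2 rose 5.68-fold from 1409 ± 52.3 to 8003 ± 1053, and Socs1, a feedback inhibitor, rose 5.31-fold from 39.9 ± 11.2 to 212 ± 53.6 (limma adjusted p = 2.53e-07 and 6.26e-05).

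The formyl peptide receptors had the largest log2 fold changes of the 9 genes. Fpr1, the receptor with high affinity for bacterial formyl peptides, held 2450.1, 3765 and 3787 normalised reads in its WT libraries, 4059.8, 5034 and 5864 in mDE and 472, 990.4 and 267 in MYH11. Fpr2, which also binds annexin A1 and cathelicidin, stood at 8492, 11751 and 12151 in WT, 18148, 13747 and 25416 in mDE and 1693, 4028 and 853 in MYH11. For both genes all mDE libraries lay above all WT libraries and all MYH11 libraries below, and the MYH11 libraries spread more than for the oxidase genes. Fpr1 fell 5.79-fold (log2 fold change -2.71, SE 0.40, limma adjusted p = 0.000322). Fpr2 fell 4.93-fold (log2 fold change -2.57, SE 0.47, limma adjusted p = 0.00124). MYH11 replicate 2 sets much of their mean, and without it the falls were 9.03-fold and 8.48-fold. Against mDE they were 8.65-fold and 8.72-fold lower (limma adjusted p = 0.000103 and 0.000259), and 13.5-fold and 15.0-fold without that library. On the RPKM scale Fpr2 exceeded Fpr1 in every library, by 2.79 to 4.57 times.

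Fpr1 and Fpr2 lie head to head on chromosome 17, with 3883 bases between the gene models (17876471 to 17883940 on the minus strand and 17887824 to 17893952 on the plus strand, GRCm38). The 250 bases before each RefSeq start are shown because the receptor genes are neighbours that moved together, with the same marks as above.
Fpr1 (chr17:17883940-17884189, minus strand): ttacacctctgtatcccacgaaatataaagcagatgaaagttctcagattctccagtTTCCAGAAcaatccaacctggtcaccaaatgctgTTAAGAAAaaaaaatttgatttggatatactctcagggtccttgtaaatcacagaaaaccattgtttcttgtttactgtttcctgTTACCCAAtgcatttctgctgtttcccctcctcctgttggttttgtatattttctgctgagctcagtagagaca
Fpr2 (chr17:17887574-17887823, plus strand): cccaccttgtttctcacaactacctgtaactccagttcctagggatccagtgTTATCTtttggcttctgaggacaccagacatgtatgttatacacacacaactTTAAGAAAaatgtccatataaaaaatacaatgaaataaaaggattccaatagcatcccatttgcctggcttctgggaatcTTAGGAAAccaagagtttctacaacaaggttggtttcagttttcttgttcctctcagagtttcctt
The C/EBP letters TTNNGNAA matched 3 times in the Fpr1 window (193 to 186, 159 to 152 and 74 to 67 bases before the start) and 2 times in the Fpr2 window (146 to 139 and 66 to 59). Both windows hold TTAAGAAA, but 36.8% of all windows hold a match to this loose motif. The windows of Cybb, Cyba, Ncf1 and Csf3r hold none, but 109 bases of the Csf3r window lie in Csf3r exons of GENCODE M21. Of the other formyl peptide receptor genes, Fpr-rs3, Fpr-rs4 and Fpr-rs6 had no read in any library, and Fpr3, which overlaps Fpr2, averaged 0.967 normalised reads in mDE, 0.392 in WT and 0 in MYH11.

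The genes that act with these receptors were mixed. Of 14 genes for formyl peptide receptor signalling and ligands, 7 were called lower and 4 higher in MYH11 (median log2 fold change -0.20). Over all genes tested, 27.8% were called lower and 32% higher. Camp, which encodes the ligand cathelicidin, fell 14.6-fold (374792 ± 24652 normalised reads in WT, 25659 ± 17072 in MYH11), and Anxa1, encoding annexin A1, fell 7.11-fold from 132804 ± 8454 to 18689.9 ± 12365. The arrestin Arrb2 fell 3.38-fold and the inhibitory G protein Gnai2 1.55-fold (limma adjusted p = 3.43e-06 and 0.000155). Of 24 tested genes for other neutrophil receptors 14 were called lower and 4 higher (median log2 fold change -0.43). Ltb4r1, the leukotriene B4 receptor, fell 5.82-fold, Itgb2, the β2 integrin chain, 3.20-fold and Cxcr4, a marrow retention receptor, 2.41-fold. Clec7a, the β-glucan receptor dectin-1 of macrophages and dendritic cells, rose 5.20-fold, from a WT mean of 1476 ± 301 to 7671 ± 1025 (limma adjusted p = 1.59e-06).

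**Figure D3:**
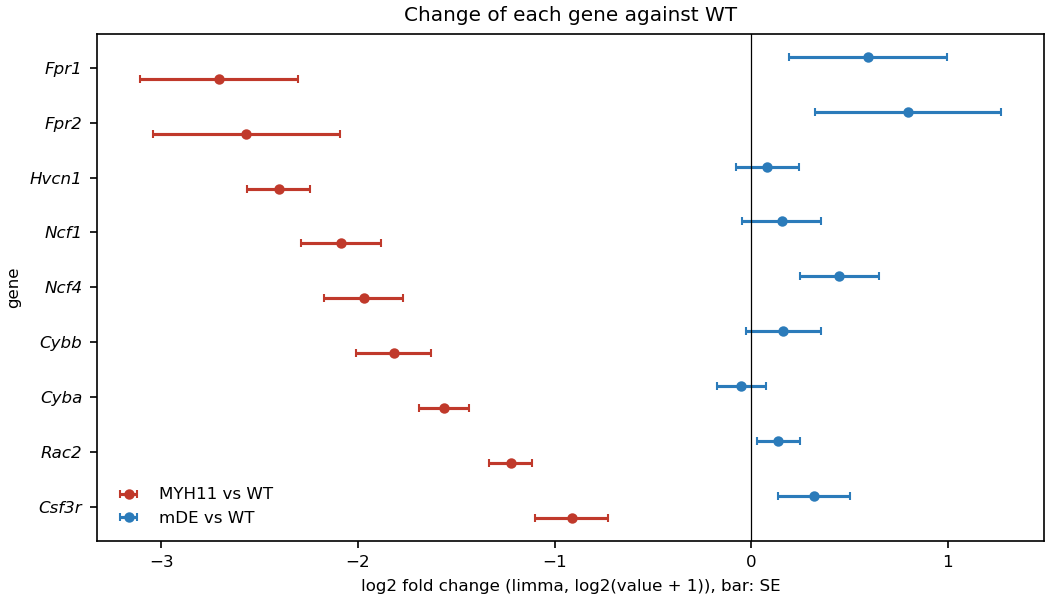
log2 fold change (x axis) of each gene (y axis) against WT, from limma on log2(value + 1); bars are the SE. MYH11 values run from -2.71 (Fpr1) to -0.91 (Csf3r), and mDE values from -0.05 (Cyba) to 0.80 (Fpr2).

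In mDE, the 9 genes stood near WT or above it. Limma called 0 of 9 against WT and gave 0 at an unadjusted p under 0.05, which 19.8% of all genes tested passed, while edgeR and DESeq2 on the recovered reads also called 0. Of all genes tested 1.24% were called in either direction. Of the 9 means, 8 lay above the WT mean, from 1.06-fold (Hvcn1) to 1.77-fold (Fpr2). Over all genes, 8435 of 15948 had a log2 fold change above 0. The 9 genes varied together over the libraries, so they are not independent counts. The median log2 fold change was 0.16, and 0.01 over all genes. Ncf4, Csf3r, Fpr1 and Fpr2 had every mDE library above every WT library, a pattern found for 13.9% of all genes tested. Fpr2 had the largest difference (log2 fold change 0.80, SE 0.47, limma adjusted p = 0.378), followed by Fpr1 (0.59, SE 0.40, limma adjusted p = 0.438), Ncf4 (0.45, SE 0.20, limma adjusted p = 0.258) and Csf3r (0.32, SE 0.18, limma adjusted p = 0.367). The late neutrophil markers had 0 of 15 genes called in mDE by limma, edgeR or DESeq2, 0 at an unadjusted p under 0.05 by limma, and a median log2 fold change of 0.28.

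MYH11 and mDE were also compared directly, and both this and the comparison of MYH11 with WT use the MYH11 libraries. All 9 genes were lower in MYH11 than in mDE, by 2.32-fold (Csf3r) to 8.72-fold (Fpr2), with a median log2 fold change of -2.24. Of all genes tested 26% were called lower here. Every MYH11 library lay below every mDE library for 9 of 9 genes, as for 29% of genes tested. Ncf4 was 5.20-fold and Hvcn1 5.54-fold lower (limma adjusted p = 1.05e-05 and 2.72e-06), and Ncf1 4.60-fold, Cyba 2.87-fold and Rac2 2.57-fold (limma adjusted p = 1.66e-05, 1.02e-05 and 8.72e-06).

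In WT and in MYH11, the 9 genes and the late neutrophil markers had the same lowest library. Together the 9 genes took 0.574% to 0.680% of reads in WT, 0.687% to 0.758% in mDE and 0.196% to 0.298% in MYH11. In MYH11, 8 of 9 genes were highest in replicate 2, then 1, then 3, an order found in 19.9% of genes tested and in 14 of 15 late neutrophil markers, and the exception was Cyba. The late neutrophil share was 1.47%, 2.49% and 0.808% in MYH11 replicates 1, 2 and 3. WT replicate 1 was the lowest WT library for 9 of 9 genes, against 37.8% of genes tested, and also had the lowest late neutrophil share in WT (11.1%, against 13.1% in each of the others). In mDE, replicate 1 was lowest for 7 of 9 genes, against 37.8% of genes tested. The late neutrophil share was 12.9%, 12.6% and 15.6% in replicates 1, 2 and 3, so replicates 1 and 2 were close. Gene by gene, 7 of 15 markers were highest in replicate 3, then 2, then 1, and 7 in replicate 3, then 1, then 2. Of the 9 genes, 6 had the first of these orders and 2 the second, against 23% and 17.4% of genes tested. Replicate 3 was the highest mDE library for 8 of 9 genes, against 40.4% of genes tested, and had the highest late neutrophil share in mDE. Summed over the list, late neutrophil markers were 9.18-fold lower in MYH11 than in WT, against 5.79-fold at most among the 9 genes. Per 1000 reads of that list, Cybb took 16.8 to 17.4 reads in WT and 38.0 to 65.3 in MYH11, and Csf3r 2.30 to 2.83 and 10.4 to 22.4. All 3 MYH11 libraries exceeded all others on this ratio for 7 of the 9 genes, but for Fpr1 and Fpr2 only 1 did. Because the list itself fell 9.18-fold, a gene that fell less, or not at all, tends to rise on this ratio. The share of all genes that does so was not computed, so this count says nothing particular about the 9 genes. The part of the lower neutrophil share in these results was not tested.

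**Figure D4:**
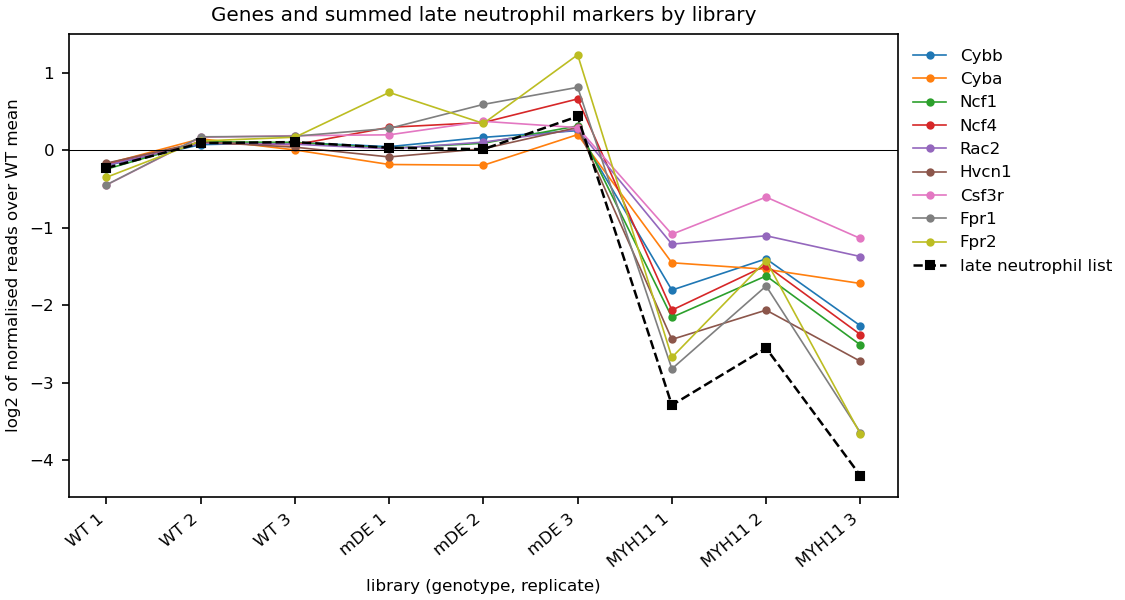
log2 of normalised reads over the WT mean (y axis) of the 9 genes and of 15 summed late neutrophil markers (black dashes) in each library (x axis); lines only join values of 1 gene. In the MYH11 libraries the summed markers lie lowest and Csf3r and Rac2 highest, and replicate 2 lies above replicates 1 and 3 for all lines but Cyba.

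Markers of other cell types were called in both directions, and so were all genes tested (27.8% lower and 32% higher in MYH11). Monocytes and macrophages carry the oxidase too, and of 12 monocyte markers 10 were called higher and 1 lower in MYH11, with 0.567% to 0.648% of reads against 0.135% to 0.140% in WT. F13a1 and Klf4 of this list were also called higher in mDE by limma, where the list took 0.161% to 0.186% (edgeR called 1 and DESeq2 5 of this list there). Of 9 eosinophil markers 5 were called lower and 1 higher (0.0259% to 0.0381% of reads in MYH11, 0.0570% to 0.112% in WT). Of 10 tested mast cell and basophil markers 8 were called higher and 2 lower (0.199% to 0.311% against 0.0250% to 0.0314%). Of 8 dendritic cell markers 6 were called higher and 1 lower, of 9 erythroid markers 5 and 2, of 9 stem and progenitor markers 6 and 2, and of 9 T and NK cell markers 1 and 5. Siglech and Flt3 of the dendritic list were called higher in mDE. No marker of these cell type lists was at 0 in all libraries, the mast cell gene Mcpt4 was at 0 in WT, and their part in the fall of the 9 genes was not tested.

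By level per exon length the order in WT was Rac2, Cyba, Cybb, Ncf1, Fpr2, Ncf4, Csf3r, Hvcn1 and Fpr1, from 495 ± 37.9 down to 55.7 ± 11.2 RPKM. The ranges of Rac2 and Cyba, of Fpr2 and Ncf4, and of Hvcn1 and Fpr1 overlapped, and the other neighbours in this order lay apart. In mDE, Cybb stood before Cyba (399.8 ± 14.5 and 394 ± 44.0) and Fpr1 before Hvcn1, each pair with overlapping ranges. In MYH11, Csf3r (57.3 ± 12.2) passed Ncf4 (53.2 ± 17.0) and Fpr2 (44.0 ± 33.1), and every pair of neighbours after Rac2 overlapped. Exon length here is that of all annotated exons joined, which need not be the expressed transcript.

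Across the 9 libraries, the genes most like the members were mostly outside the lists above. Likeness was Pearson's r of log2(value + 1) among 10421 protein-coding genes, and the large genotype differences raise it for many genes, so it is a description. Cybb was most like Actn1, an α-actinin (r = 0.999), and Ncf1 was most like Pfkfb4, a regulator of glycolysis, and S100a11 (r = 0.999 each). Cyba was most like Myl12a, a myosin light chain, Rac2 like Ints12, Ncf4 like the syntaxin Stx11 and Hvcn1 like the acyltransferase Agpat2 (r from 0.998 to 0.999). Csf3r was most like Svil, supervillin (r = 0.998), Fpr1 like Ifitm10 (r = 0.999) and Fpr2 like G6pdx, of the pentose phosphate pathway (r = 0.996). Among the members, r ranged from 0.900 (Csf3r with Cyba) to 0.999 (Ncf1 with Cybb).

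The genomic neighbours of the 9 genes were mixed. Of 30 tested genes within 100000 bases, the members left out, 9 were called lower and 8 higher in MYH11 against WT. These counts lie near the shares over all genes tested, 27.8% lower and 32% higher. Ncf4 lies on chromosome 15 (78244801 to 78262580) beside genes of the common beta chain of the receptors for IL-3, GM-CSF and IL-5, named here after their values were seen. Csf2rb2, 19927 bases away, stood at 1416 ± 94.3 normalised reads in WT and 37379.7 ± 12294 in MYH11, a rise of 26.4-fold. Csf2rb, 63172 bases away, rose 5.17-fold from 9040.5 ± 402 to 46772 ± 9475 (limma adjusted p = 3.94e-07 and 1.12e-06), and reads of this near-identical pair can be split between them. Rac2 lies 296586 bases from Ncf4 on the same chromosome. Near Csf3r, Oscp1, also named after its values were seen, fell by 2.93 on the log2 scale (limma adjusted p = 1.14e-05), and Csf3r by 0.91. Gtf2ird2 overlaps Ncf1 and Tctn1 overlaps Hvcn1 on the opposite strand, and the counting is not stated to use strand. They averaged 822 and 163 normalised reads in WT, against 49349 and 10178 for Ncf1 and Hvcn1.

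**Figure D5:**
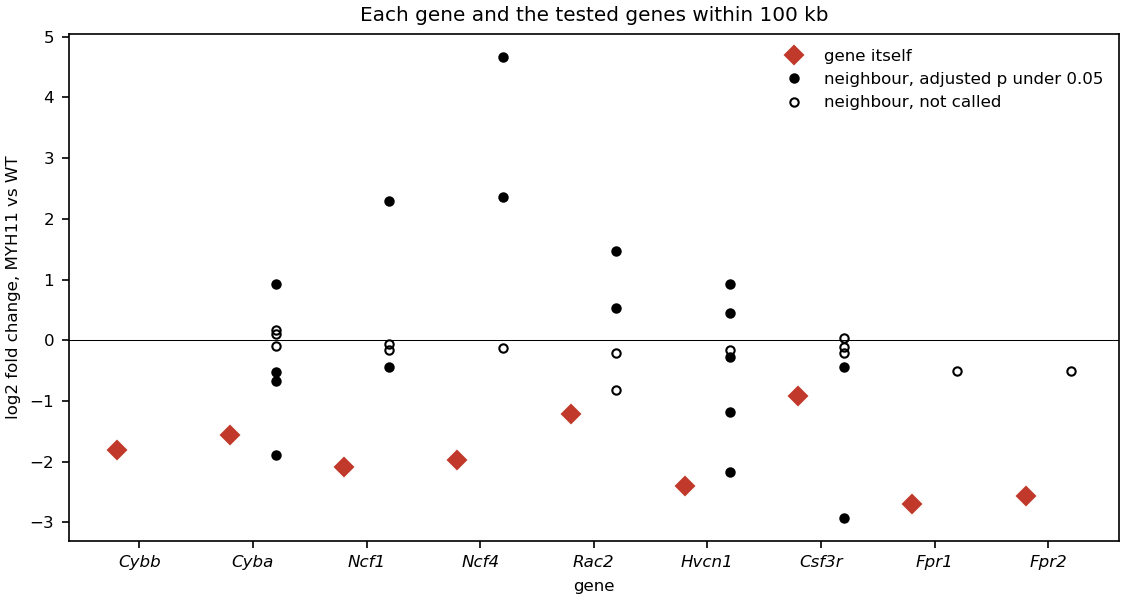
log2 fold change of MYH11 against WT (y axis) for each of the 9 genes (red diamonds) and the tested genes within 100 kb of it (circles, filled where the limma adjusted p is under 0.05). Neighbours lie on both sides of 0, and the highest are Csf2rb2 and Csf2rb beside Ncf4.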

How the data were processed

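Reads of 9 libraries were processed with CASAVA 1.8.2, STAR 2.4, RSEM and DESeq2 on GRCm38, per the submitters' processing notes, which give neither role nor order. The table as deposited holds a normalised signal per gene and library. Its values (100% of them) were, to within 1e-06, whole multiples of 1 step per library, that is gene counts divided by 1 factor per library, and whole reads were recovered from them. Its log2 fold change and p-value columns, deposited by the authors with no comparison named in the header, were not used. Intervals of reads cover counting error only.

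The recovered reads were filtered with filterByExpr (edgeR 4.0.16), and 15948 genes passed. limma-trend (limma 3.58.1, R 4.3.3) was fitted to log2(value + 1) of all 9 libraries with genotype as the only term, and two-sided p-values were adjusted by Benjamini-Hochberg over all genes tested, with a threshold of 0.05. The test was also run on simulated data in which few genes changed and all genes shared a common setting of spread. These libraries differ from that setting, so no conclusion about the calls is drawn from it. RPKM used the recovered reads and the joined exon length in GENCODE M21. Promoter windows and their starts are from RefSeq, GRCm38.p6, in which 6 of 9 members were found.

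The members and lists were chosen with earlier results of these data known. Named genes were the members, oxidase partners that are part of the enzyme or stabilise it (1 is not reported here) and at most 4 called genes per list with the smallest adjusted p in MYH11 against WT, plus list genes called in mDE against WT. For likeness, genes needed a mean of at least 100 normalised reads. Alternatives were 3 other scalings (TMM, recomputed DESeq2 factors, upper quartile), no filter and a filter of 5 CPM in 3 libraries, pseudocounts of 0.5 and 4, edgeR's quasi-likelihood test and DESeq2 (1.42.0) on recovered reads, a block for the replicate number, a fit of the compared groups alone, and omission of each library in turn. On recovered reads edgeR called 4947 genes higher and 4609 lower in MYH11 against WT, and 112 and 76 in mDE against WT. Camp and Cxcr2 are each in 2 lists.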

Additional observations from a re-analysis of the deposited data

How the results depend on the processing

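In MYH11 against WT and against mDE, all 9 genes kept their direction and an adjusted p under 0.05 under the 20 alternatives, with a highest adjusted p of 0.0107 (Csf3r against WT). In mDE against WT none of the 9 was called under any alternative, and adjusted p ranged from 0.109 (Ncf4) to 0.999 (Hvcn1). Small mDE differences changed sign: Cyba stood at 0.028 without WT replicate 2, 0.012 without mDE replicate 1 and 0.017 without mDE replicate 2 on the log2 scale (range without 1 library -0.18 to 0.028), and Hvcn1 at -0.027 without mDE replicate 3 (range -0.027 to 0.16). Rap1a in MYH11 against WT stood at 0.015 without MYH11 replicate 2 (range -0.068 to 0.015). None of these was called.

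The number of all genes called in mDE against WT, 131 higher and 67 lower, depended on the analysis. It was 80 and 43 with the stricter filter, which tests fewer genes, 593 and 348 with DESeq2, and 38 and 23 with only the groups compared, which leaves fewer libraries. Without 1 library it ranged from 25 (without WT replicate 2) to 169 (without MYH11 replicate 2) higher and from 6 (without WT replicate 3) to 93 (without MYH11 replicate 2) lower. The higher count was over 1.5 times smaller without any library except mDE replicate 1 or MYH11 replicate 2. The cause was not tested for DESeq2. With the replicate number as a block it was 73 and 28. The labels do not say that a number pairs libraries: deviations of same-numbered libraries correlated from -0.147 to 0.125, and 3 of 9 libraries correlated best with their own number. The block changed no call of the 9 genes. Among the fold changes of the 9 genes in MYH11, only those of Fpr1 and Fpr2 moved by over 1.5 times without a library, MYH11 replicate 2. Depth did not limit the members, but genes with a few reads, such as Csf3 or Fpr3, cannot be compared.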
